A study of Homo sapiens with 6 samples.

Results

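STAT2, IRF1, IRF3, IRF7, IRF9, RIGI, IFIH1, TLR3 and STING1 are 9 genes of the pathway by which a cell detects foreign or misplaced nucleic acid and answers with interferon. They were taken by name and not by a measured value, though earlier results of these data were known. Every non-control probe whose RefSeq accession belongs to 1 of the 9 symbols was used. This gave 11 probes of the 34127 on the array, with 2 probes each for RIGI and IRF3 and 1 for each of the other 7 genes, against 19740 named genes on the array as a whole. Their mRNA was compared between CAL-27 cells, an established squamous cancer line of the human tongue, in which XBP-1s was knocked down by an shRNA (the shXBP-1s group, n = 3) and CAL-27 cells with a control shRNA (the shCtrl group, n = 3). XBP-1s is the spliced form of XBP1, a transcription factor of the unfolded protein response. The labels list both shRNAs as a transfection and the methods describe stable transduction with the XBP-1s shRNA, and no drug or time point was named. Neither the labels nor the methods say whether the 3 samples of a group were separate cultures or clones, so the p-values measure only the spread between these samples.

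Each sample was hybridised to 1 one-colour Agilent array, and a level is the log2 of the scanner's background-subtracted signal relative to the 75th percentile of its own array, so that 0 stands for that percentile. XBP1, the targeted gene, had levels of 1.88, 1.85 and 1.87 on the shCtrl arrays and of -0.50, -0.54 and -0.52 on the shXBP-1s arrays, a fall of 2.39 on the log2 scale (adjusted p = 2.81e-07, limma). Whether the probe reads the spliced form, the unspliced form or both was not analysed here. The 75th percentile of the raw signal ran from 687.4 to 761.3 on the shCtrl arrays and from 792.0 to 983.4 on the shXBP-1s arrays, with no overlap, so scaling lowers every shXBP-1s value relative to shCtrl. No slide name was read, so arrays were grouped by scan date. Slide 1 and slide 2 are used below as names for the 2 scan dates, and which arrays shared a physical slide is not known. Slide 1 holds shCtrl arrays 2 and 3, and slide 2 holds shCtrl array 1 and the 3 shXBP-1s arrays. Of 7 markers of the labelled cell type, CDH1 (4.86) and EPCAM (4.67) were highest in shCtrl, and TP63 (-1.70) and KRT6A (-1.93) were lowest. All 7 were well above background on all 6 arrays. So were 4 of 4 leukocyte and 3 of 3 endothelial markers with a probe, each read by its brightest tested probe. Of the probes of PTPRC 2 of 4 were tested, and of those of PECAM1 2 of 3. Being above background by the brightest probe thus does not tell these cell types apart here. The precision of each value is limited by having 3 arrays in a group.

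RIGI and IFIH1 (MDA5) are cytosolic helicases that bind double-stranded RNA, TLR3 binds it inside endosomes, and STING1 is the adaptor at the endoplasmic reticulum that answers the cyclic dinucleotide made by the DNA sensor cGAS. Their signals run through the kinases TBK1 and IKKε to IRF3 and IRF7, which switch on interferon genes. Secreted interferon then acts through its receptor and the Janus kinases on STAT2 and IRF9, which act in a complex that binds the interferon-stimulated response element, and IRF1 acts on related elements downstream of interferon gamma. Many of these genes are themselves induced by interferon, so the pathway feeds back on its own sensors.

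RefSeq start regions (build GRCh38.p14, 250 bases before to 50 after the start) were held for 6 of the 9 genes, and those of STING1, IRF3 and IRF7 were not matched. They are printed for RIGI (chr9:32526147-32526446, minus strand) and IRF1 (chr5:132490724-132491023, minus strand), which fell most, for TLR3 (chr4:186068906-186069205, plus strand), which fell least among the sensors that passed the test, and for IFIH1 (chr2:162318635-162318934, minus strand), which did not pass. Each reads 5′ to 3′ along the gene. Capitals mark, on either strand, GAAA repeated after a gap of any 2 bases, the core of the interferon-stimulated response element, or TTCNNNGAA, the site bound by STAT dimers.
RIGI: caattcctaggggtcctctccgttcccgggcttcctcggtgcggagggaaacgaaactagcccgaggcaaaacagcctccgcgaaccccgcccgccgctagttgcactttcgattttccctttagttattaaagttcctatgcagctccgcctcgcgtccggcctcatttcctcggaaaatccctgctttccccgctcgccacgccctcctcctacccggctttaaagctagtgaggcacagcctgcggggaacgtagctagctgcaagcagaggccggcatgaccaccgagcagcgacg
IRF1: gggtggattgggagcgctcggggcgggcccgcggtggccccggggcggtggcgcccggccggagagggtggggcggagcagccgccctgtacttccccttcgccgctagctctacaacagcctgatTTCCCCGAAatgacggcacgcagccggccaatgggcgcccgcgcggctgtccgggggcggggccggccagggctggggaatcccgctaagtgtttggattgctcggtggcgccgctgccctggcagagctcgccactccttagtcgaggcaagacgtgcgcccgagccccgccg
TLR3: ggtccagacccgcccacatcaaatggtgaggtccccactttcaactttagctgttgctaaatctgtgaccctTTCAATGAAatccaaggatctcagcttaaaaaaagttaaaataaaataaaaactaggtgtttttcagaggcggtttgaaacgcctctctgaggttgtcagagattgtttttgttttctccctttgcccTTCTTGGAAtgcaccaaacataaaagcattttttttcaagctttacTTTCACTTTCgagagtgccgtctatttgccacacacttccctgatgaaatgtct
IFIH1: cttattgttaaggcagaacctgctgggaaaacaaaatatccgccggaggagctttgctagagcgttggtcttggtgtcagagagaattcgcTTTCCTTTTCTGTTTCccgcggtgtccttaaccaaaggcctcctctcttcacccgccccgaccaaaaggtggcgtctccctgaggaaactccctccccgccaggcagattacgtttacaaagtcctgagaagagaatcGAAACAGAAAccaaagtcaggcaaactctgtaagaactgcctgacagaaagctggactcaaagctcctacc
The RIGI window held neither motif. IRF1 held 1 STAT motif, which starts 124 bases before the gene's start, and TLR3 held 2, at 178 and 50 bases before, with a response element core 4 bases before. IFIH1 held 3 response element cores, at 159, 153 and 21 bases before the start, of which the first 2 overlap. Of the other windows, that of IRF9 held 1 STAT motif 63 bases before the start and that of STAT2 held neither. Among all 35116 RefSeq windows of this length, 3.57% held the response element core and 7.66% the STAT motif. ACGTG, the core letters of XBP1 sites and of many other factors' sites, was present on either strand in the windows of IRF1 (30 bases after the start) and IRF9 (1 CACGTG, which holds ACGTG on both strands) and in 21.4% of all windows. CCACG was present in those of RIGI (51 bases before) and IRF9 (249 and 72 bases before, the latter overlapping the CACGTG) and in 38.1% of all, and the full ER stress response element was in none of the 6 and in 0.0769% of all. These are matches of letters and no record of binding.

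Of the 11 probes, 7 were lower in shXBP-1s at a Benjamini-Hochberg adjusted p below 0.05, 0 were higher, and 4 did not pass the test, which limma ran over 27624 probes. The probes that passed were 1 of 2 for RIGI, both for IRF3, and the single probes of TLR3, IRF7, IRF1 and STAT2. IFIH1, STING1 and IRF9 did not pass. Over all tested probes 41.7% passed in either direction, 23.3% lower and 18.4% higher. Of the 9 genes, each read by its brightest probe, 6 were lower, where 27.5% of the 16821 genes tested were lower and 18.9% higher. RIGI was the single gene past 2-fold, a threshold that 4.9% of probes and 5.18% of genes passed together with the test. In the same 7 probes the shCtrl and shXBP-1s arrays did not overlap, and for each the exact permutation test over arrays gave a p of 0.1, the smallest that 3 arrays against 3 allow. What share of all tested probes had no overlap, before or after scaling, is not given here, so such counts have no background beside them.

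**Figure D1:**
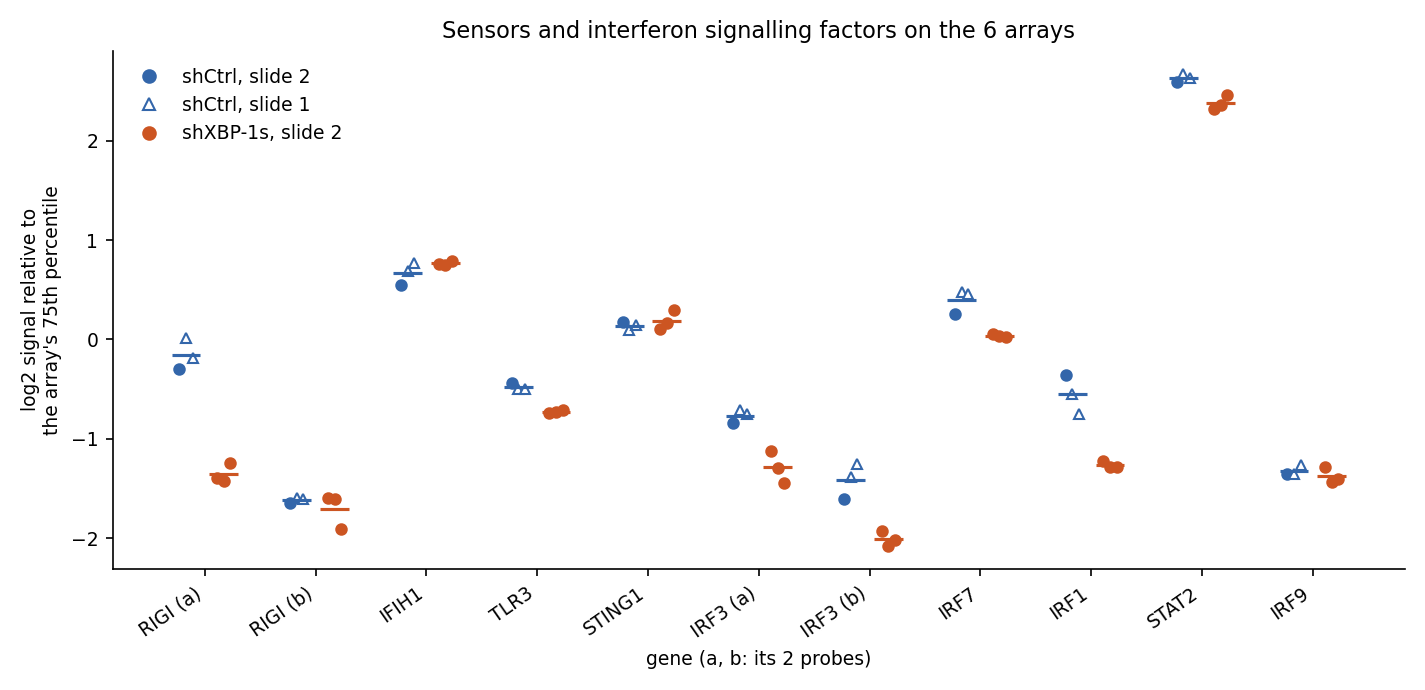
Level of each probe on each array, as log2 signal relative to the array's 75th percentile. Blue points are shCtrl (open triangles on slide 1, filled circle on slide 2), orange points are shXBP-1s (slide 2), and short lines are group means of 3 arrays. The first RIGI probe fell from between -0.29 and 0.01 to between -1.42 and -1.24, whereas the second overlapped between the groups.

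Among the sensors, RIGI gave the largest change and also a split between its probes. The first probe, A_33_P3418170, had levels of -0.29, 0.01 and -0.18 on the shCtrl arrays and of -1.39, -1.42 and -1.24 on the shXBP-1s arrays. Every shXBP-1s array was lower than every shCtrl array, with a gap of 0.95 between the nearest arrays. The mean went from -0.15 ± 0.16 to -1.35 ± 0.10 (SD, n = 3 each), a log2 fold change of -1.20 (SE 0.09, 95% interval -1.40 to -0.995, adjusted p = 2.51e-05), which left 43.6% of the control signal. The second probe, A_33_P3372910, annotated with the same transcript, had -1.65, -1.59 and -1.61 in shCtrl and -1.60, -1.61 and -1.90 in shXBP-1s. Its groups overlapped, and its change of -0.09 (SE 0.09, 95% interval -0.29 to 0.11, adjusted p = 0.464) did not pass.

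The distance between the RIGI probes on the same array, in which any scaling of the array cancels, was 1.36, 1.61 and 1.43 on the shCtrl arrays and 0.21, 0.19 and 0.66 on the shXBP-1s arrays. The mean distance went from 1.46 ± 0.13 to 0.35 ± 0.27 (SD, n = 3 each), a change of -1.11 with no overlap between the groups (exact permutation test, 2-sided, p = 0.1, the smallest possible). The probes thus changed unequally. Both were well above background on all 6 arrays, and which parts of the transcript they read was not analysed here. Beside the first probe, the 3 probes with a symbol whose levels over the 6 arrays lay nearest to it, each set around its own mean, were those of PLCL1 (root mean square distance 0.046), DMRT2 (0.046) and CYSRT1 (0.048), with log2 fold changes of -1.21, -1.18 and -1.21.

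TLR3, the endosomal receptor for double-stranded RNA, had levels of -0.44, -0.49 and -0.50 in shCtrl and of -0.74, -0.73 and -0.71 in shXBP-1s. The groups were tight and did not overlap, although the change was small, from -0.48 ± 0.03 to -0.73 ± 0.01 (SD, n = 3 each), or -0.25 (SE 0.05, 95% interval -0.36 to -0.15, adjusted p = 0.00278). This left 84.0% of the control signal.

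IFIH1, the helicase that binds long double-stranded RNA, had 0.54, 0.69 and 0.77 in shCtrl and 0.76, 0.75 and 0.79 in shXBP-1s. shCtrl array 1 was the lowest of the 6, and the other 5 lay close together. The change of 0.10 (SE 0.06, 95% interval -0.05 to 0.24, adjusted p = 0.257) did not pass. STING1 had 0.17, 0.10 and 0.14 in shCtrl and 0.11, 0.16 and 0.30 in shXBP-1s, with overlapping groups and a change of 0.05 (SE 0.06, 95% interval -0.09 to 0.19, adjusted p = 0.519). The interval of each excludes a 2-fold change in either direction.

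IRF3, the factor present before infection that TBK1 activates, was lower on both of its probes. The first, A_23_P27677, had -0.84, -0.71 and -0.75 in shCtrl and -1.12, -1.30 and -1.44 in shXBP-1s. The second, A_33_P3327333, annotated with another IRF3 transcript, had -1.61, -1.38 and -1.25 in shCtrl and -1.93, -2.08 and -2.02 in shXBP-1s. On each probe all shXBP-1s arrays lay below all shCtrl arrays. The log2 fold changes were -0.52 (SE 0.08, 95% interval -0.71 to -0.32, adjusted p = 0.00163) and -0.59 (SE 0.09, 95% interval -0.81 to -0.38, adjusted p = 0.00139), which left 69.7% and 66.2% of the control signal. The distance between the probes on an array changed by 0.07 between the groups (exact permutation test, 2-sided, p = 0.5).

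IRF7, which interferon induces and which amplifies interferon production, had 0.26, 0.48 and 0.45 in shCtrl and 0.05, 0.03 and 0.03 in shXBP-1s. The shXBP-1s arrays were almost equal and all below shCtrl, of which array 1 was the lowest. Its mean went from 0.39 ± 0.12 to 0.04 ± 0.01 (SD, n = 3 each), a change of -0.36 (SE 0.06, 95% interval -0.51 to -0.21, adjusted p = 0.00288).

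IRF1, an activator of antigen presentation genes among others, had -0.36, -0.55 and -0.75 in shCtrl and -1.23, -1.28 and -1.29 in shXBP-1s. The shCtrl arrays were more spread out than the shXBP-1s arrays but stayed above them. The mean went from -0.56 ± 0.20 to -1.26 ± 0.03 (SD, n = 3 each), a change of -0.71 (SE 0.09, 95% interval -0.93 to -0.49, adjusted p = 0.000546), which left 61.2% of the control signal.

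STAT2, a transcription factor that type I interferon activates, had 2.60, 2.67 and 2.63 in shCtrl and 2.31, 2.36 and 2.46 in shXBP-1s. The groups did not overlap, and the mean went from 2.63 ± 0.04 to 2.38 ± 0.07 (SD, n = 3 each), a change of -0.25 (SE 0.05, 95% interval -0.37 to -0.14, adjusted p = 0.00498). IRF9, its DNA-binding partner, had -1.35, -1.35 and -1.26 in shCtrl and -1.28, -1.44 and -1.41 in shXBP-1s. Its groups overlapped, and the change of -0.06 (SE 0.06, 95% interval -0.20 to 0.09, adjusted p = 0.508) did not pass.

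**Figure D2:**
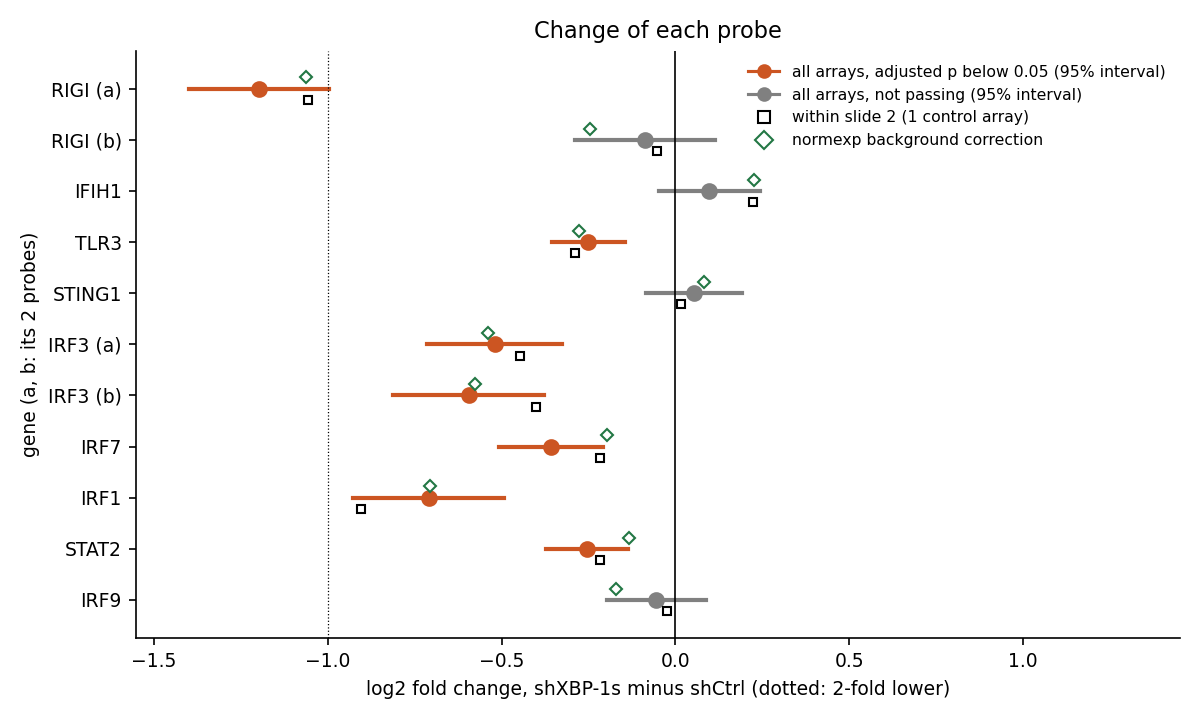
Log2 fold change of each probe, shXBP-1s minus shCtrl, with the 95% interval from limma (orange where the adjusted p was below 0.05, grey otherwise). Open squares give the change within slide 2 against its single shCtrl array, and open diamonds the change after normexp background correction. The first RIGI probe lay past 2-fold (dotted line) in each as plotted, at -1.20, -1.06 and -1.06. The diamonds are not centred on the normexp median of -0.41, relative to which this probe was at -0.65, short of 2-fold.

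The slide and the scaling touched these changes unequally. Against shCtrl array 1 alone, which had the scan date of the shXBP-1s arrays, the first RIGI probe changed by -1.06 and IRF1 by -0.91. IRF3 changed by -0.45 and -0.40, TLR3 by -0.29, IRF7 by -0.22 and STAT2 by -0.22. All 7 thus kept their direction within that scan date. With the slide as a block STAT2 no longer passed (adjusted p = 0.059) and IFIH1 passed as higher (0.22, adjusted p = 0.0319). That fit sets the 3 shXBP-1s arrays against shCtrl array 1 alone, and its p-values assume that this array varies like the others, which supply the spread.

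Before scaling, the first RIGI probe had a signal of 560.4 to 768.8 in shCtrl and of 333.7 to 375 in shXBP-1s, and IRF1 one of 447.8 to 535.8 in shCtrl and of 324.9 to 420.1 in shXBP-1s. These were the probes whose groups did not overlap before scaling among the 7 that passed. The other 5 overlapped, as for STAT2, at 4154 to 4838 in shCtrl and 4347 to 4890 in shXBP-1s, and for IRF7, at 820.3 to 1059 and 807.7 to 1021. IFIH1 and STING1 were higher in shXBP-1s before scaling, IFIH1 at 1372 to 1663 against 1002 to 1291 and STING1 at 974.6 to 1058 against 774.7 to 833.3. The direction of TLR3, IRF3, IRF7 and STAT2 is therefore a direction relative to the rest of the array.

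**Figure D3:**
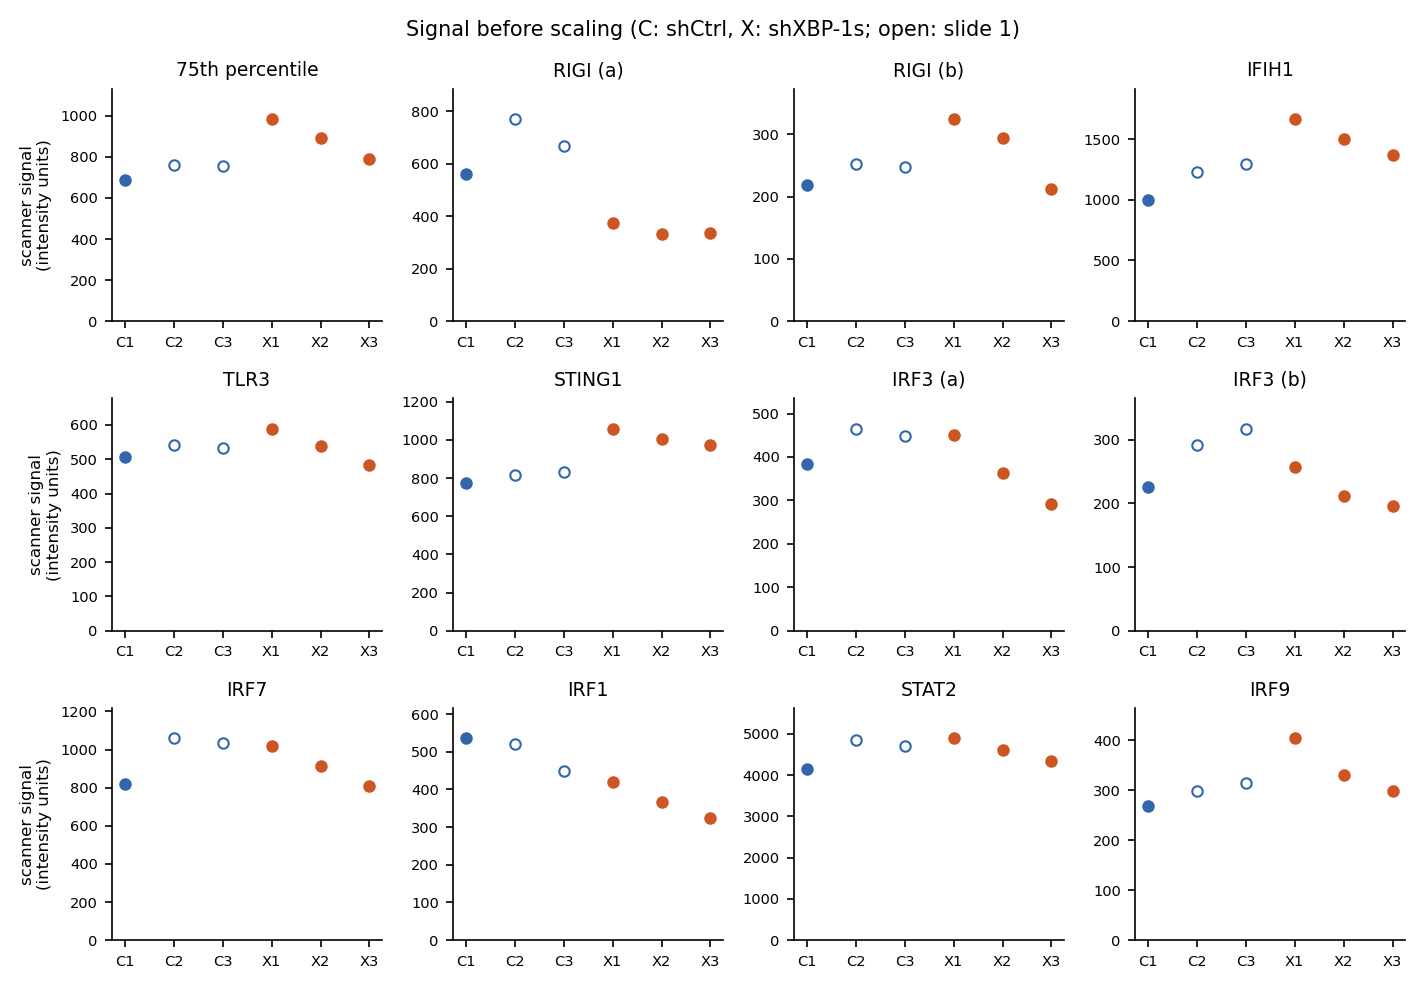
Scanner signal before scaling, in intensity units on axes that start at 0, for the 75th percentile of each array and for the 11 probes. C1 to C3 are the shCtrl arrays and X1 to X3 the shXBP-1s arrays, with open points on slide 1. The 75th percentile was higher on each shXBP-1s array (792.0 to 983.4) than on each shCtrl array (687.4 to 761.3), and the first RIGI probe and IRF1 were lower all the same.

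After normexp, another background correction, the tested probes had a median log2 fold change of -0.41, against -0.02 as reported. The normexp median ran from -0.86 in the dimmest quartile of probes to 0.04 in the brightest. Under normexp, the first RIGI probe (-1.06), IRF1 (-0.71) and the first IRF3 probe (-0.54) still passed, and TLR3 (-0.28, adjusted p = 0.0998), the second IRF3 probe (-0.58, adjusted p = 0.0551), IRF7 (-0.20, adjusted p = 0.2) and STAT2 (-0.13, adjusted p = 0.446) did not. Relative to that median, RIGI was at -0.65, IRF1 at -0.29 and IRF3 at -0.13 and -0.16, while TLR3 (0.14), IRF7 (0.22) and STAT2 (0.28) changed sign. Relative to the median of probes in their own quartile of signal, all 7 were below 0, from -0.13 for TLR3 to -0.91 for RIGI.

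**Figure D4:**
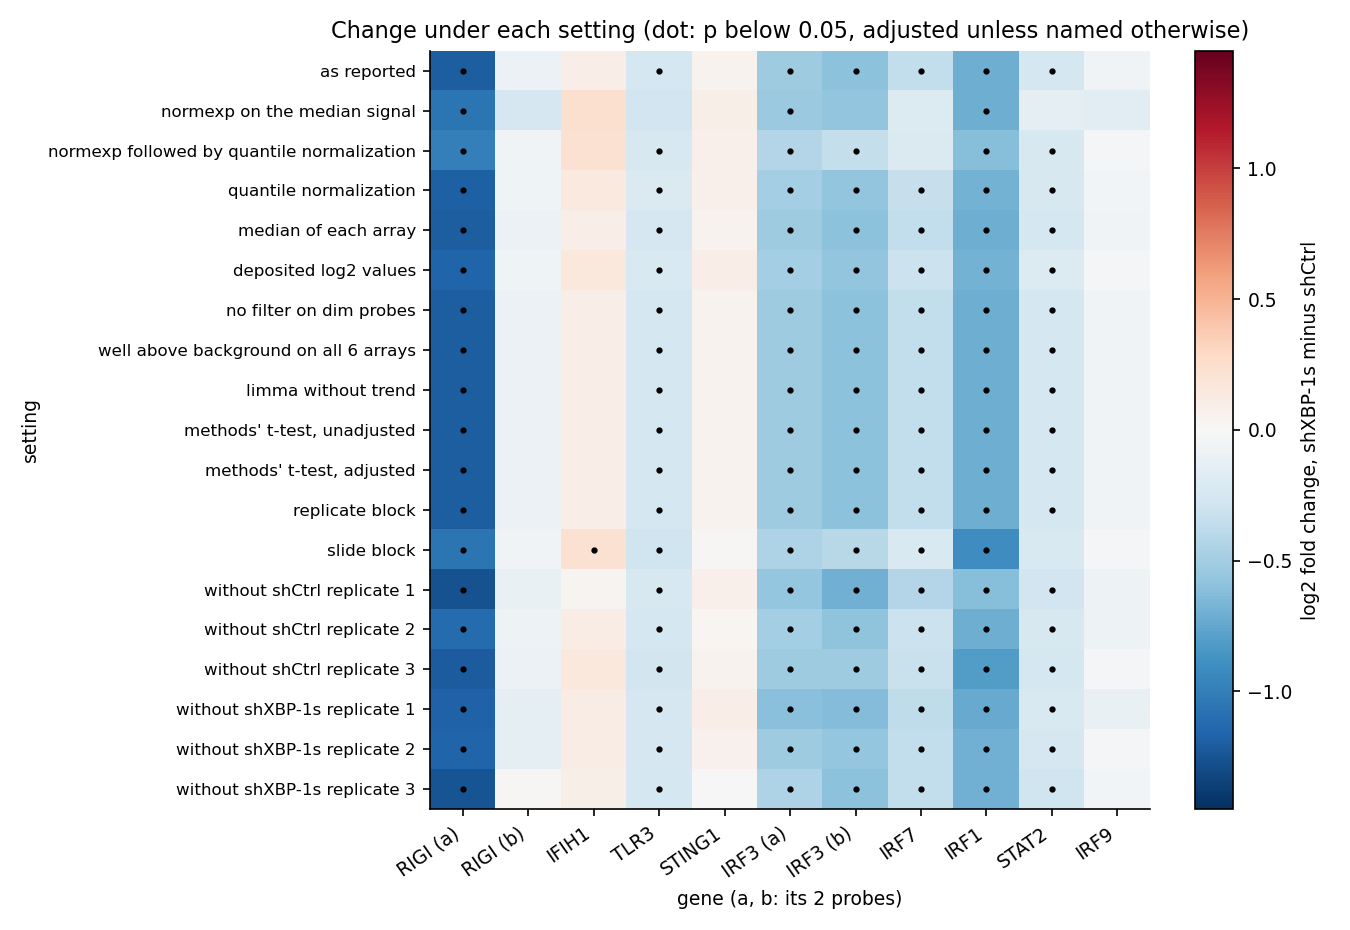
Log2 fold change of each probe (colour, blue lower and red higher in shXBP-1s) as reported and under the other processing settings and with each array left out. A black dot marks a p below 0.05, adjusted unless the setting is named as unadjusted. The first RIGI probe, IRF1 and the first IRF3 probe carry a dot in each row, and the 4 probes that lose theirs under normexp are TLR3, the second IRF3 probe, IRF7 and STAT2.

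The rest of the pathway was read from 129 genes listed by role, of which 119 were tested, each by its brightest probe. Of these, 43 were lower (36.1%), 22 were higher (18.5%) and 54 did not pass, beside 27.5% lower and 18.9% higher over all genes. The median log2 fold change was -0.09, against -0.04 over all tested genes and -0.25 over the 9 sensors and factors above. Past 2-fold were 6 of the 119, all lower, beside 871 of the 16821 genes (5.18%), 484 lower and 387 higher, so the share past 2-fold was near that of all genes.

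Of 14 other RNA and DNA sensors tested, 2 were lower, 3 were higher and 9 did not pass. DHX58 (LGP2), a helicase relative of RIGI that regulates RIGI and IFIH1, fell from 1.25 ± 0.03 to 0.52 ± 0.12 (log2 fold change -0.73, adjusted p = 7.15e-05), and DHX36, a helicase that unwinds quadruplexes, fell by 0.65 (adjusted p = 1.46e-05). AIM2, the DNA sensor of the inflammasome, rose from -0.60 ± 0.04 to 0.12 ± 0.08 (0.72, adjusted p = 3.19e-05). CGAS, chosen after its value was seen because it feeds STING1, had a change of 0.04 (adjusted p = 0.548).

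Among 16 adaptors and kinases, 5 were lower and 4 higher. TBK1, the kinase that phosphorylates IRF3 and IRF7, fell from 1.73 to 1.19 (-0.55, adjusted p = 2.39e-05), and IKBKB, a kinase of the NF-κB branch, fell by 0.74 (adjusted p = 0.00028). TICAM1 (TRIF), the adaptor of TLR3, rose by 0.38 (adjusted p = 0.000651). Picked out after their values were seen, IKBKE (IKKε) fell by 0.88 (adjusted p = 0.000741) and MAVS, the adaptor of RIGI and IFIH1, rose by 0.31 on its brightest probe (adjusted p = 0.00377), while its 3 probes ranged from -0.71 to 0.31.

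Of 16 ubiquitin ligases and cofactors of the sensors, 6 were lower and 2 higher. CYLD, a deubiquitinase, fell by 0.98 (adjusted p = 8.73e-06), TRIM4, a ligase of RIGI, fell by 0.90 on its brightest probe (adjusted p = 6.57e-06) with 0.22 on the other, and IFI35 fell by 0.36 (adjusted p = 0.00145). Of 8 nucleases and editing enzymes, 4 were lower and 0 higher, among which RNASEH2B fell by 0.39 (adjusted p = 0.000171) and RNASEH2C fell by 0.29 (adjusted p = 0.00473). Both are subunits of the nuclease that removes RNA from RNA-DNA hybrids.

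**Figure D5:**
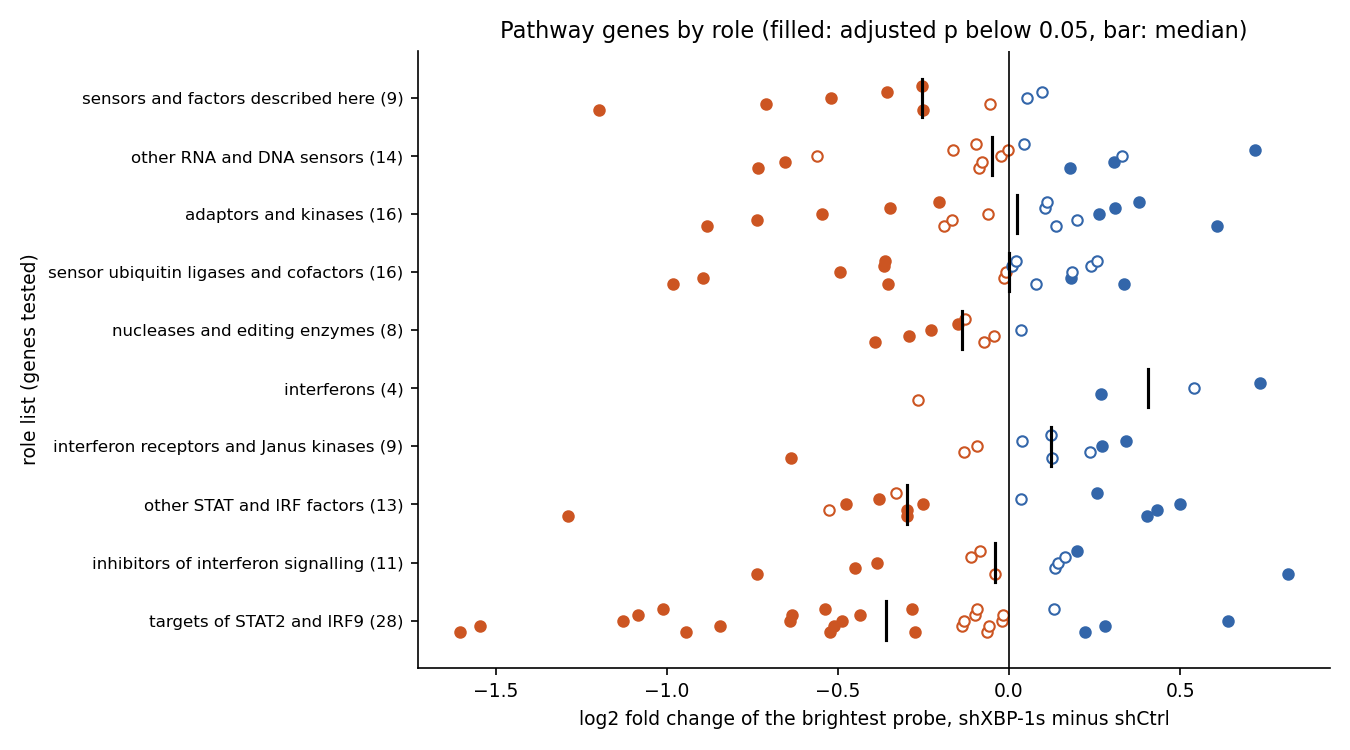
Log2 fold change of each tested pathway gene on its brightest probe, shXBP-1s minus shCtrl, 1 row per role list with the number of genes tested. Filled points passed at an adjusted p below 0.05, open points did not, orange is lower and blue higher, and the black bar is the median. Points past 2-fold lower stand in 3 rows: OASL, DDX60, IFITM1, IFIT1 and HERC5 among the targets, IRF2BP2 among the other factors, and RIGI.

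Of 9 interferon genes, 4 were tested, 0 were lower and 2 were higher. IFNE, an epithelial type I interferon, rose from -3.80 ± 0.08 to -3.07 ± 0.08 (0.73, adjusted p = 0.00021). IFNL2, a type III interferon, rose from -3.48 ± 0.14 to -3.21 ± 0.08 (0.27, adjusted p = 0.0487). IFNB1, chosen after its value was seen, had 0.54 (adjusted p = 0.107) at a level of -6.28 ± 0.47 in shCtrl. IFNA21, outside the list and picked after its value was seen, rose by 0.996 (adjusted p = 0.00217) at a mean level of -5.82. Other interferon genes outside the list are not reported here. Of 9 receptors and Janus kinases, 1 was lower and 2 were higher. IFNAR1, a chain of the type I interferon receptor, fell by 0.64 (adjusted p = 0.000505), JAK2 rose by 0.34 (adjusted p = 0.00106), and IFNGR2, a chain of the interferon gamma receptor, rose by 0.27 (adjusted p = 0.00345).

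Of 13 other STAT and IRF factors, 6 were lower and 4 higher. IRF2BP2, a corepressor that binds IRF2, fell from -0.37 ± 0.12 to -1.66 ± 0.17 (-1.29, adjusted p = 2.92e-05), and STAT5B fell by 0.48 (adjusted p = 8.54e-05). Of 11 inhibitors, 3 were lower and 2 higher. SOCS3 fell by 0.74 (adjusted p = 2.16e-05), PTPN1 fell by 0.39 (adjusted p = 0.000197) and CISH, a SOCS family member, rose by 0.82 (adjusted p = 0.000245).

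Of 28 targets of the complex that holds STAT2 and IRF9, 16 were lower, 3 higher and 9 did not pass, with a median of -0.36. IFIT1, which binds foreign RNA caps, fell by 1.61 on the log2 scale (SE 0.07, adjusted p = 2.63e-06), and OASL, an oligoadenylate synthetase relative that aids RIGI, went from -0.51 ± 0.04 to -2.05 ± 0.06 (-1.54, adjusted p = 1.67e-06). DDX60, a helicase that acts with RIGI, fell by 1.13 (adjusted p = 2.62e-06), IFITM1, which blocks virus entry, fell by 1.08 (adjusted p = 2.63e-06), and HERC5, the ligase for ISG15, fell by 1.01 (adjusted p = 4.77e-06). MX1, chosen after its value was seen, had -0.02 (adjusted p = 0.821) and did not pass.

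Markers of other cell types were read beside these changes. The squamous epithelial markers rose in 5 of 7 genes and fell in 0, among them KRT6A by 4.28, KRT14 by 1.58 and KRT5 by 1.43, and their summed level in multiples of the 75th percentile went from between 57.6 and 59.8 to between 69.9 and 78.1. The sum of 4 leukocyte markers ran from 13.3 to 16.2 in shCtrl and from 13.8 to 14.1 in shXBP-1s, with PTPRC, which marks all leukocytes, at -1.44 and -1.39. Within that list CD14 (2.27 in shCtrl) fell by 0.84 and CD79A (3.24 in shCtrl) rose by 0.19, and both passed the test. That of 3 endothelial markers ran from 0.197 to 0.259 and from 0.244 to 0.260. The sum of 4 fibroblast markers was at least 0.908 on each shCtrl array and at most 0.496 on each shXBP-1s array, with COL3A1 above background on 0 arrays. Most of that sum was PDGFRB, which fell by 1.28, whereas COL1A1 fell by 0.63 and COL1A2 had -0.07 (adjusted p = 0.551). A marker below background still has a signal value, so these sums alone do not show that a cell type was present. The part of the epithelial and fibroblast genes in the changes above was not tested.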

How the data were processed

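Total RNA of 6 CAL-27 samples, 3 shXBP-1s and 3 shCtrl, grouped by their labels, was read on 1-colour Agilent arrays. The labels describe a NimbleGen Cy3 labelling procedure, whereas the scanner files are those of an Agilent array. The authors deposited the output of Feature Extraction 11.0.1.1, whose processed signal is an intensity per spot after background subtraction, not normalized between arrays. A table of log2 probe values was deposited too and served as an alternative only. The submitters' processing notes name RMA, and the normalization of that table is otherwise not given in the sources used here.

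From 44495 spots, of which 1377 were controls, spots with an outlier or non-uniformity flag were dropped and from the log2 signal that of the array's 75th percentile over non-control spots was subtracted. Spots of a probe were averaged, and 19 probes with no unflagged spot were left out. Probes well above background (over 50% of spots) in every array of at least 1 group, 27624 in all, entered limma 3.58.1 under R 4.3.3 (lmFit, then eBayes with trend), 2-sided, and the Benjamini-Hochberg adjustment ran over all of them. A probe passed at an adjusted p below 0.05, and a change of at least 2-fold was counted beside it. Symbols came from matching accessions to the RefSeq table of GRCh38.p14 (25771 of 34127 probes). The array annotation is on another build, so no probe positions are given. A gene other than the 9 described was read by the brightest of its tested probes. Saturation was found on 0 of the probes described. The script was tested on simulated data.

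The genes, the role lists and the marker lists were chosen with earlier results of these data known, and the lists were written from general knowledge. Named are all 11 probes, XBP1, in each role list the genes that passed at 2-fold or more, up to 5 by smallest p and filled to 3 with those of smallest p, the 3 probes most like the described probe of smallest p, and others where the text says so. Some genes that this rule names are not reported here. The shRNA sequence was not used here.

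Alternatives were normexp (offset 50, run on the median spot signal), normexp with quantile normalization, quantile normalization, the array median, the deposited log2 values, no filter or a stricter one on dim probes, other thresholds, the methods' t-test, limma without trend, slide or replicate number as a block, the mean over probes, and leaving out each array.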

Additional observations from a re-analysis of the deposited data

How the results depend on the processing

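The 7 probes that passed kept their sign under all alternatives run, with normexp values not centred on their median of -0.41, relative to which TLR3 (0.14), IRF7 (0.22) and STAT2 (0.28) changed sign. The first RIGI probe stayed between -1.27 and -0.99 and IRF1 between -0.91 and -0.61. Of the other probes, the second RIGI probe (-0.25 to 0.01) and STING1 (-0.002 to 0.10) changed sign without passing. The count of 7 probes that passed became 3 with normexp and 1 when 2-fold was also required, and the 65 pathway genes became 37 and 6. Normexp with quantile normalization left 6 probes, without IRF7 (-0.21, adjusted p = 0.0914). A block for the slide, which leaves 1 shCtrl array against 3, gave 7 probes, with IFIH1 in and STAT2 out, and 56 pathway genes. Each array left out in turn gave 7 probes, from 7 to 7, and between 51 and 69 pathway genes, the lowest without shXBP-1s array 2 and the highest without shCtrl array 1. Deviations from the group mean had correlations of -0.016, 0.117 and -0.116 between samples of the same number. With 3 samples in a group this check cannot tell whether the numbers pair samples. With the replicate block 7 probes and 62 pathway genes passed. Averaging a gene's probes, run for the pathway genes alone, gave 62. The remaining settings gave 7 probes and between 50 and 67 pathway genes. Why normexp and the slide moved these counts was not tested.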
